A study of Mus musculus with 17 samples.

Results

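Myc and 37 genes for ribosome assembly were followed in 3134 cells, a mouse mammary epithelial line, after induction of dominant-negative chromatin remodelers. The 38 genes were taken by symbol from a list, and a gene with several probe sets was read from the one with the highest mean. Of these, 36 had a probe set named for 1 gene, out of 19938 such genes on the array. The other two, Noc2l and Ppan, which also act in large-subunit assembly, were not measured here, and the only probe set naming Ppan names a neighbouring gene too. Every measured member lay above the dim end of the array: the lowest member mean was 7.06 on the log2 scale, and the dimmest 30% of genes had means under 4.77.

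All lines carried a tetracycline-repressible transactivator and were kept in stock medium with 5 µg/ml tetracycline. For the experiment they were plated without the drug (induced) or with it (repressed) and harvested after 48 h. The dnBrg1, dnChd4 and dnSnf2h lines each also held a stably integrated, Flag-tagged dominant-negative form of that remodeler and gave 2 induced and 2 repressed arrays, 12 in all. Each is the ATPase of a remodeling complex: Brg1, encoded by Smarca4, of SWI/SNF, Chd4 of NuRD and Snf2h, encoded by Smarca5, of the ISWI family. The control line induced the transactivator alone and gave 3 induced and 2 repressed arrays. Induction therefore always combines drug removal, the transactivator and, in the dominant-negative lines, the mutant remodeler. The labels say neither whether a line is 1 clone nor whether replicates were separate cultures. The p-values therefore reflect sample-to-sample spread alone, and that spread may be technical.

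Ribosome assembly begins in the nucleolus, where RNA polymerase I copies the ribosomal DNA into a long precursor. Small nucleolar ribonucleoproteins (snoRNPs) modify and help cut that precursor, and separate sets of factors fold it into the small and the large subunit. Myc, which binds DNA as a dimer with Max at the E-box CACGTG, is a known activator of this programme, and its targets include genes of all 3 of these steps. The proteins of the Mxd family and Mnt compete with Myc for Max and repress E-box genes.

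In these cells most members fell on induction in the dnChd4 and dnSnf2h lines, and fewer in the dnBrg1 line. Of the 36 members, 30 fell and none rose in the dnChd4 line, where 6.82% of all genes fell, and 29 fell and none rose in the dnSnf2h line, where 8.34% of all genes fell. In the dnBrg1 line 9 fell and 1, Bysl, rose, beside 6.22% of all genes lower and 8.01% higher. These calls come from a fit on the 12 arrays of the 3 dominant-negative lines, and with the control line's arrays added to the fit 0 of 36 members passed in any line. Myc itself fell in all 3, by 0.70 on the log2 scale in dnBrg1, by 1.16 in dnChd4 and by 1.29 in dnSnf2h. The members were listed with results of these data known, so the counts describe the list and are not independent evidence of its direction.

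The promoter sequences show how many members carry the Myc motif near their start. RefSeq windows (build GRCm38.p6) running from 250 bases before to 50 bases after the start were at hand for 32 of the 38 members, and for 30 of the 36 measured. The 6 measured members without a window were Bop1, Fbl, Myc, Npm1, Rrp12 and Rrs1. CACGTG, which reads the same on both strands, was in the window of 6 of 32 members (18.8%), against 2187 of 27025 genes in the table (8.09%). The related CACGCG or its reverse complement CGCGTG was in 9 of 32 members (28.1%), against 10.5% of genes. Member windows were also richer in G and C, with a median of 59.5% against 52.7% over all windows, and the part of base composition in the motif shares was not tested. A match is a description of the sequence and not of binding.

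The 6 stretches holding CACGTG are given 5′ to 3′ on the gene's strand, with the motif in capitals, because this is the motif that Myc and Max are known to bind. They lie at chr11:3963965-3963994 (+) for Pes1, chr6:125131811-125131840 (+) for Nop2, chr10:88826765-88826789 (-) for Utp20, chr17:71616220-71616249 (+) for Wdr43, chr1:34439696-34439725 (+) for Imp4 and chr11:74898092-74898121 (+) for Tsr1. The motif begins 60 bases before the start in Nop2 and 121 before it in Imp4, and 2 to 37 bases after it in the other 4.
Pes1: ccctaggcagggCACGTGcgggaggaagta
Nop2: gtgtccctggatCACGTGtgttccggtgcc
Utp20: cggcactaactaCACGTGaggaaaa
Wdr43: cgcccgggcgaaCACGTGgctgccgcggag
Imp4: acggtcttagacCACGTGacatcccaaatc
Tsr1: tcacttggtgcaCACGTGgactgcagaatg

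The 6 members with CACGTG had median log2 changes of -0.27 in dnBrg1, -0.60 in dnChd4 and -0.58 in dnSnf2h. The 24 measured members with a window and no CACGTG had -0.21, -0.49 and -0.50 in the same order of lines. Among the members with a window, Dkc1 and Nop56 had the lowest mean change over the 3 lines, and Bysl was the member that rose. They are shown next by the 250 bases before their start, since none of the 3 windows holds CACGTG. Dkc1 (chrX:75095604-75095853, +) and Nop56 (chr2:130274162-130274411, +) had neither motif. Bysl (chr17:47611493-47611742, -) had 1 CACGCG, in capitals.
Dkc1: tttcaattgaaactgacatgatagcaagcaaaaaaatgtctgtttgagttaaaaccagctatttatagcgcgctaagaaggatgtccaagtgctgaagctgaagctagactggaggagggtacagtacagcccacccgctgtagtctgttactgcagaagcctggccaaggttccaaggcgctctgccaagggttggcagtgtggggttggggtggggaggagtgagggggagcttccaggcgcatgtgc
Nop56: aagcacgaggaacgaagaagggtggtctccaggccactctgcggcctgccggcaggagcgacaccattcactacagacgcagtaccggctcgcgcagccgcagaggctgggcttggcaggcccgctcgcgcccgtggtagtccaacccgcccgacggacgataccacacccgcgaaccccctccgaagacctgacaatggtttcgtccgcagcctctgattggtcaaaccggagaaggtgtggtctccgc
Bysl: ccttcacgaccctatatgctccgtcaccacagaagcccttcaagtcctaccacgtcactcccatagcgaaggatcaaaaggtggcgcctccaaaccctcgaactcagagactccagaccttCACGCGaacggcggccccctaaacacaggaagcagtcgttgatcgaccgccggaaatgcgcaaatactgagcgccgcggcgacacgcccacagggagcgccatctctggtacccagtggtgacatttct

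Before the comparisons, 3 facts of the series bear on the members. The defining luminal markers Epcam and Krt19 were dim on average, and Krt8, Krt18 and Cdh1 had median levels of 6.35, 5.70 and 5.17. Among the fibroblast markers, Col1a2 lay between 10.9 and 12.6, and Pdgfrb, Pdgfra and Col1a1 had medians of 8.86, 7.86 and 6.97. Dcn, a defining fibroblast gene, was dim (mean 3.95). Array medians over all probe sets ran from 5.48 to 5.63, so Cdh1 lay below them, Krt18 just above and Krt8 further above. Few luminal markers thus go with the epithelial name of the line, and the fibroblast markers did not all go one way. Chd4 signal was 12.27 on both induced dnChd4 arrays, against 10.56 and 10.35 on the repressed ones, a log2 change of 1.82 (adjusted p = 1.43e-07). Smarca4 did not change in dnBrg1 (0.12, adjusted p = 0.615) nor Smarca5 in dnSnf2h (-0.24, adjusted p = 0.209) past the threshold, and whether their probe sets read the transgene is not given. On the 5 control arrays, likeness did not follow the labels. The array labelled control repressed replicate 1 correlated at 0.9953 with control induced replicate 2, and control repressed replicate 2 at 0.9945 with control induced replicate 1, while the 2 repressed control arrays correlated with each other at 0.9747.

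For that reason the dominant-negative lines were fitted on their own 12 arrays, with limma and Benjamini-Hochberg adjustment over all 19938 genes and a threshold of 0.05. The choice was made with earlier results of these data known. In this fit 14.2% of all genes passed in dnBrg1 (6.22% lower, 8.01% higher), 18% in dnChd4 (6.82% lower, 11.2% higher) and 17.5% in dnSnf2h (8.34% lower, 9.2% higher). The median member change was -0.24 in dnBrg1, -0.57 in dnChd4 and -0.52 in dnSnf2h, beside medians of -0.03, -0.03 and -0.01 over all genes. With the control arrays in the same fit, which leaves these fold changes as they are and adds the control arrays' spread, none of the 36 members passed in any line. There, 1, 6 and 7 members had an unadjusted p under 0.05 in dnBrg1, dnChd4 and dnSnf2h, and 0.341%, 0.0953% and 0.00502% of all genes passed. Every call of an induction in a dominant-negative line, before and after this point, is one of the 12-array fit.

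**Figure D1:**
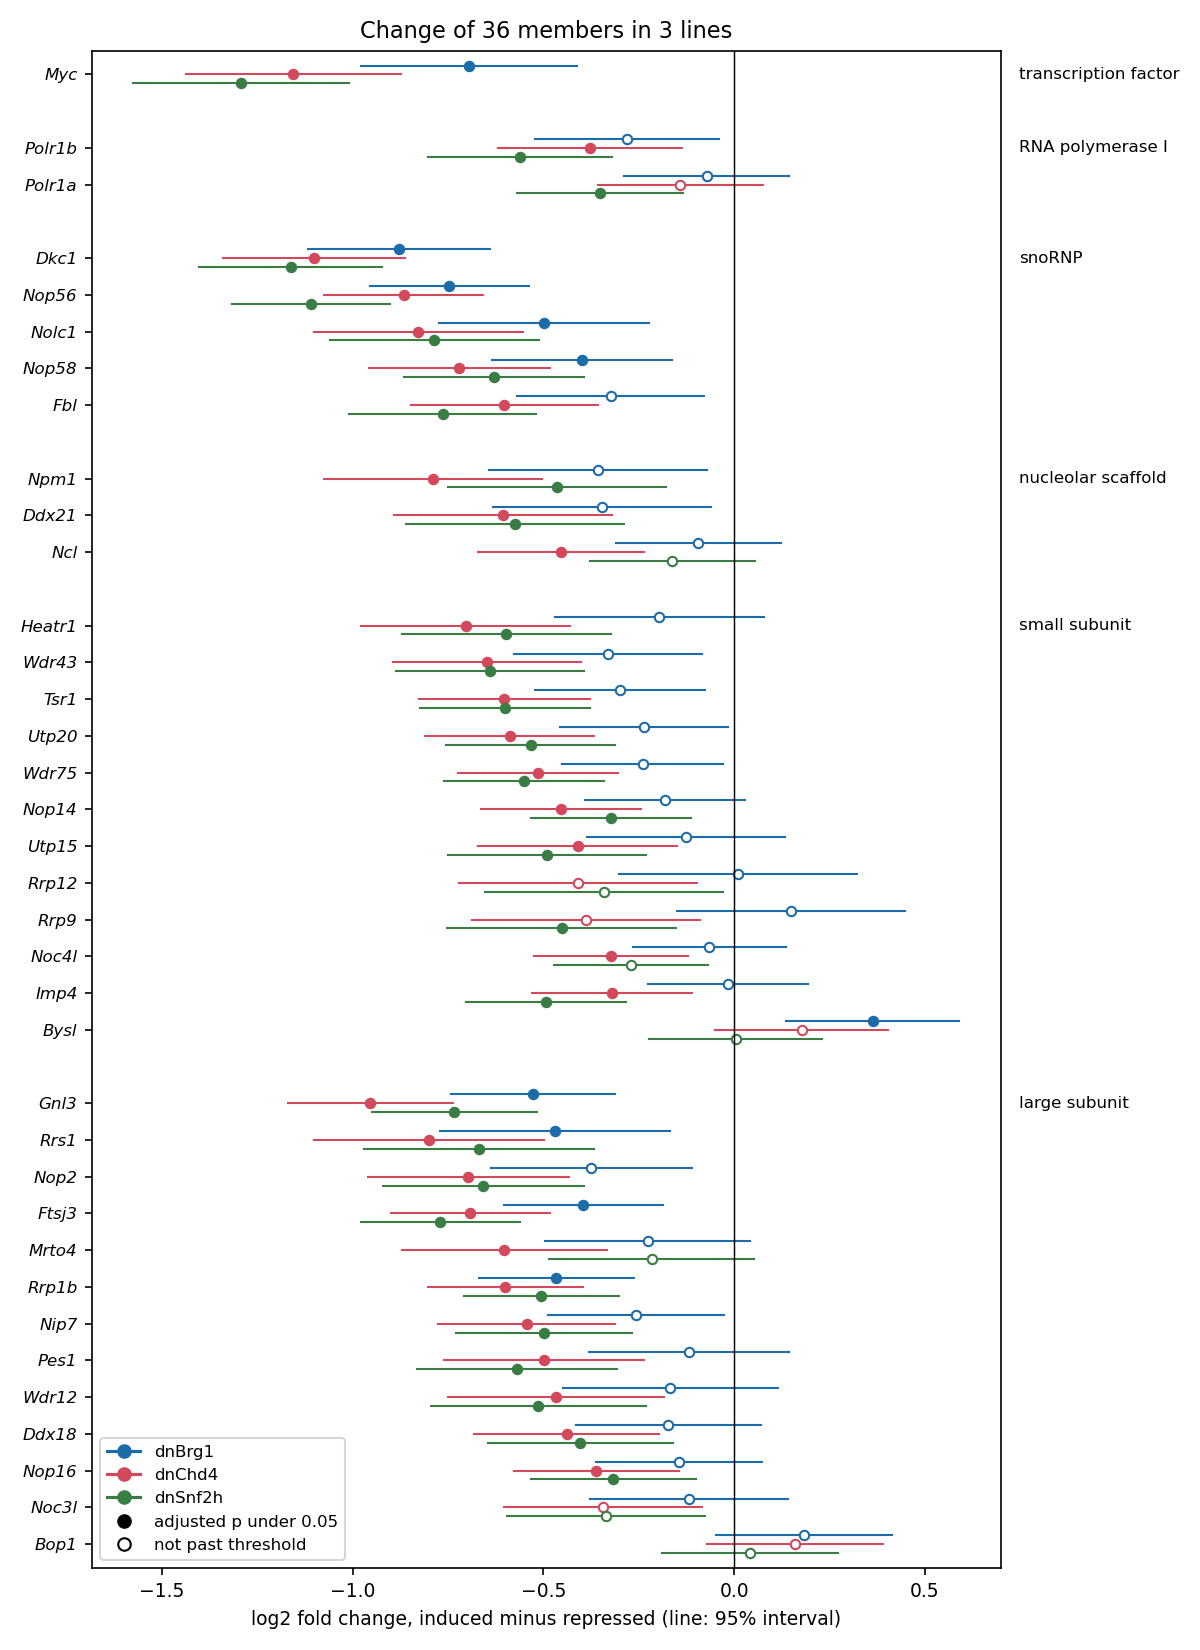
Log2 change of each measured member, induced minus repressed, in the dnBrg1, dnChd4 and dnSnf2h lines, grouped by role. Points are differences of group means of 2 arrays each, lines are 95% intervals from the 12-array fit, and filled points passed the adjusted threshold of 0.05; Myc, Dkc1 and Nop56 lie farthest left in dnBrg1 and dnSnf2h, Myc, Dkc1 and Gnl3 in dnChd4, and Bysl and Bop1 lie farthest right in each line.

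Myc signal was 9.14 and 9.19 on the induced dnBrg1 arrays, against 9.99 and 9.73 on the repressed ones. In the dnChd4 line it was 8.65 and 8.89 induced, against 9.77 and 10.09 repressed. In the dnSnf2h line it was 8.22 and 8.45 induced, against 9.56 and 9.70 repressed. Induced and repressed arrays did not overlap in any of these lines. The fall was 1.62-fold in dnBrg1 (log2 change -0.70, SE 0.132, adjusted p = 0.00239), 2.23-fold in dnChd4 (-1.16, adjusted p = 2.90e-05) and 2.45-fold in dnSnf2h (-1.29, adjusted p = 1.58e-05). On the control arrays Myc was 9.77, 7.72 and 7.63 induced, against 7.59 and 9.71 repressed, so both labelled groups spanned almost the same range.

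Most snoRNP proteins fell in every dominant-negative line. Nop56 and Nop58 form the core of the box C/D particles together with the methyltransferase Fbl, Dkc1 is the pseudouridine synthase of the box H/ACA particles, and Nolc1 is a chaperone of both kinds. All 5 fell in dnChd4 and in dnSnf2h, and 4 of 5 fell in dnBrg1. Fbl missed the threshold there (-0.32, adjusted p = 0.0793).

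Dkc1 signal was 8.96 and 8.91 induced, against 9.87 and 9.76 repressed, in the dnBrg1 line. It was 8.77 and 9.0 induced, against 9.97 and 10.00 repressed, in the dnChd4 line, and 8.49 and 8.71, against 9.66 and 9.86, in the dnSnf2h line. Induced arrays lay below repressed arrays throughout. The log2 changes were -0.88 (SE 0.112, adjusted p = 0.000111), -1.10 (adjusted p = 1.08e-05) and -1.16 (adjusted p = 9.82e-06) in dnBrg1, dnChd4 and dnSnf2h.

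Nop56 signal was 10.23 and 10.14 induced, against 10.95 and 10.91 repressed, in the dnBrg1 line. It was 10.23 and 10.32, against 11.03 and 11.25, in dnChd4, and 9.92 and 9.98, against 11.07 and 11.05, in dnSnf2h. The groups were again apart in each line, with log2 changes of -0.75 (SE 0.0974, adjusted p = 0.000141), -0.87 (adjusted p = 2.55e-05) and -1.11 (adjusted p = 4.46e-06). Nolc1 changed by -0.50, -0.83 and -0.79, and Nop58 by -0.40, -0.72 and -0.63, in dnBrg1, dnChd4 and dnSnf2h, all past the threshold.

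Fbl is read with less certainty. Its brightest probe set lies in the array's numbering among probe sets of chromosome 17 genes (13 of 15 neighbours), while the gene is on chromosome 7, and it may read a copy elsewhere. Its other probe set, which sits among chromosome 7 genes, fell by 0.32 in dnBrg1, 0.50 in dnChd4 and 0.31 in dnSnf2h on the log2 scale, each past the threshold. The brightest probe sets of Wdr12 and Ddx18 have the same limit. This reading by chromosome was added after the values were seen, and with the own-chromosome probe sets 12, 29 and 28 members were called in dnBrg1, dnChd4 and dnSnf2h.

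**Figure D2:**
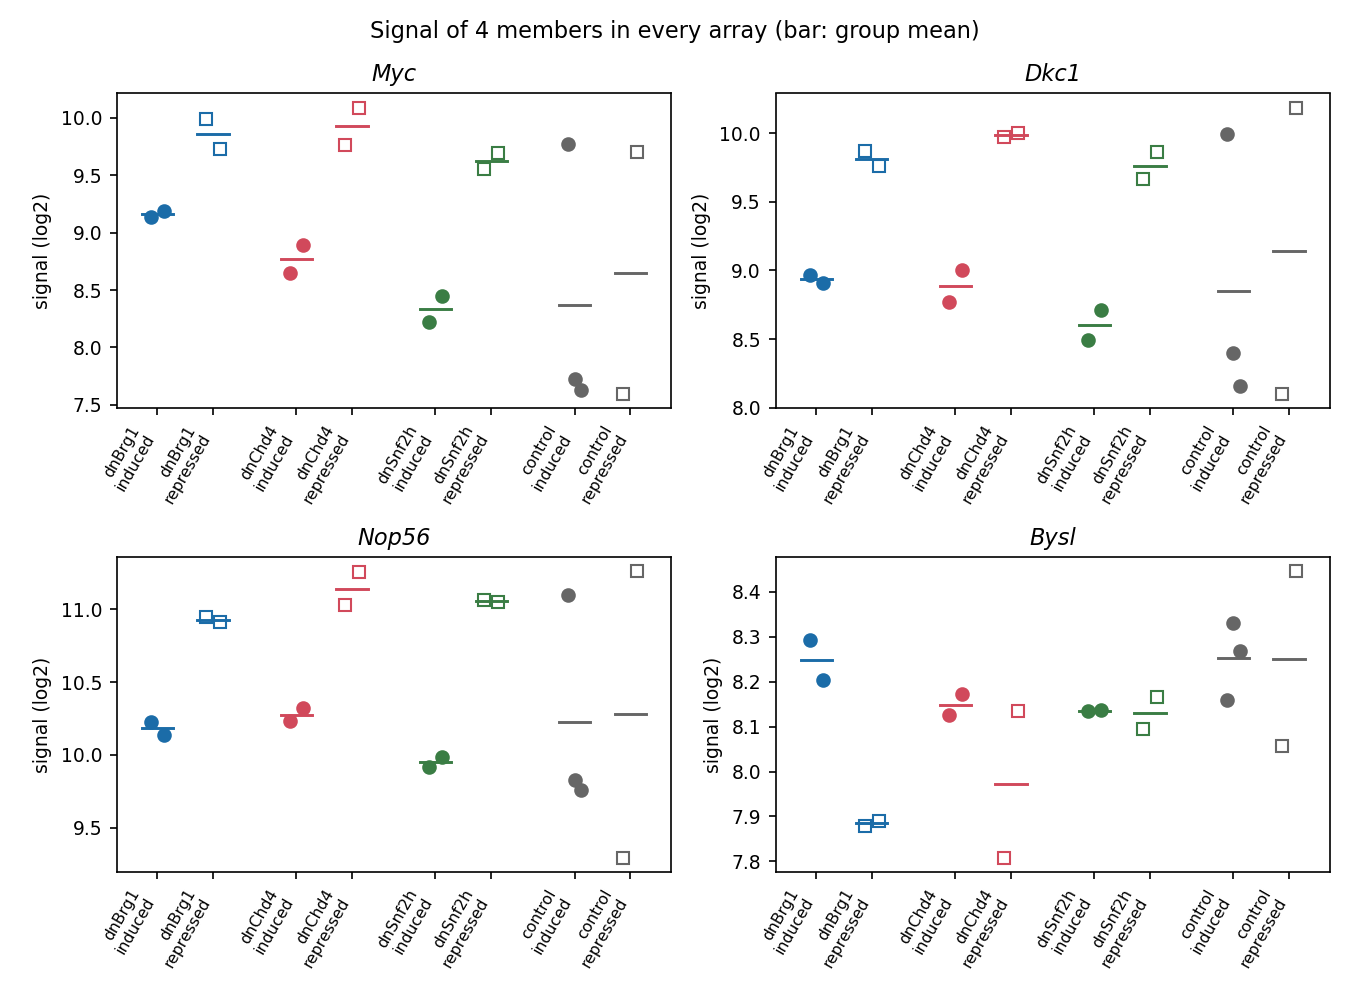
Log2 signal of Myc, Dkc1, Nop56 and Bysl on each of the 17 arrays, filled circles for induced and open squares for repressed arrays, with a bar at each group mean. Induced arrays lie below repressed arrays for Myc, Dkc1 and Nop56 in the 3 dominant-negative lines, Bysl is higher on the induced dnBrg1 arrays, and the control groups spread widely.

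The 3 nucleolar scaffold proteins passed in dnChd4, 2 of them also in dnSnf2h and none in dnBrg1. Npm1, a histone and ribosome chaperone, Ncl, which binds nascent ribosomal RNA, and the helicase Ddx21 fell in dnChd4, by 0.79, 0.45 and 0.61 on the log2 scale. In dnSnf2h, Npm1 (-0.46) and Ddx21 (-0.57) fell and Ncl did not pass (-0.16, adjusted p = 0.334). In dnBrg1 their changes were -0.36, -0.09 and -0.35 for Npm1, Ncl and Ddx21. Ncl signal was 10.88 and 11.07 induced, against 11.34 and 11.52 repressed, in dnChd4. In dnSnf2h it was 10.90 and 11.03, against 11.14 and 11.12, and in dnBrg1 10.997 and 11.08, against 11.12 and 11.14, so every induced array lay below its line's repressed arrays.

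The RNA polymerase I subunits passed in fewer lines. Polr1b, the second largest subunit, fell in dnChd4 (-0.38, adjusted p = 0.0292) and dnSnf2h (-0.56, adjusted p = 0.00272) and did not pass in dnBrg1 (-0.28, adjusted p = 0.124). Polr1a, the largest subunit, fell in dnSnf2h (-0.35, adjusted p = 0.0252), with -0.14 in dnChd4 and -0.07 in dnBrg1, neither past the threshold.

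Of the 12 small-subunit factors measured, 9 fell in dnChd4, 9 fell in dnSnf2h and none fell in dnBrg1. Utp15, Wdr43, Wdr75, Heatr1 and Utp20 belong to the processome that handles the early precursor, and all 5 fell in dnChd4 and dnSnf2h, by 0.41 to 0.70 and by 0.49 to 0.64 on the log2 scale. Nop14 and Imp4, which bind the same particle, and Tsr1, a late cytoplasmic factor, also fell in both lines, from -0.32 to -0.60 in each. Noc4l passed in dnChd4 (-0.32, adjusted p = 0.0257) and just missed in dnSnf2h (-0.27, adjusted p = 0.0627). Rrp9, a protein of the snoRNP at the processome's core, passed in dnSnf2h (-0.45, adjusted p = 0.0375) and missed in dnChd4 (-0.39, adjusted p = 0.0725). Rrp12, an export factor, passed nowhere (0.01 in dnBrg1, -0.41 in dnChd4, -0.34 in dnSnf2h). In dnBrg1 the 11 small-subunit factors other than Bysl ranged from -0.33 (Wdr43, adjusted p = 0.0735) to 0.15 (Rrp9, adjusted p = 0.595).

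Bysl, the mammalian relative of a yeast small-subunit maturation factor, was the exception. Its signal was 8.29 and 8.20 on the induced dnBrg1 arrays, against 7.88 and 7.89 on the repressed ones, a log2 change of 0.36 (SE 0.106, adjusted p = 0.0321). In dnChd4 it was 8.13 and 8.17 induced, against 7.81 and 8.14 repressed, and in dnSnf2h 8.13 and 8.14, against 8.09 and 8.17. The groups were apart in dnBrg1 and overlapped in the other two lines, where the changes were 0.18 (adjusted p = 0.322) and 0.00 (adjusted p = 0.987). The dnBrg1 call was lost whenever 1 of the 4 dnBrg1 arrays was left out (adjusted p = 0.103 to 0.217).

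Of the 13 large-subunit factors measured, 11 fell in dnChd4, 10 in dnSnf2h and 4 in dnBrg1. The 4 were Gnl3 (nucleostemin, a nucleolar GTPase), Rrs1, which helps bring in the particle of the smallest ribosomal RNA, Rrp1b, and Ftsj3, a methyltransferase of the precursor. Each also fell in dnChd4 and dnSnf2h. Gnl3 signal was 8.34 and 8.30 induced, against 8.90 and 8.78 repressed, in dnBrg1 (-0.53, adjusted p = 0.00248). It was 8.47 and 8.65, against 9.44 and 9.60, in dnChd4 (-0.95, adjusted p = 1.53e-05), and 8.52 and 8.49, against 9.18 and 9.30, in dnSnf2h (-0.73, adjusted p = 0.000159). The induced arrays of the 3 lines thus lay within a narrower range than the repressed ones. Rrs1 changed by -0.47, -0.80 and -0.67, Rrp1b by -0.47, -0.60 and -0.51, and Ftsj3 by -0.39, -0.69 and -0.77 in dnBrg1, dnChd4 and dnSnf2h.

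Pes1, Bop1 and Wdr12 make up the PeBoW complex, which is needed for processing of the large-subunit precursor, and 2 of its 3 members passed. Pes1 fell in dnChd4 (-0.50) and dnSnf2h (-0.57), and so did Wdr12 (-0.47 and -0.51). The own-chromosome probe set of Wdr12 passed in dnSnf2h (-0.51) and not in dnChd4 (-0.29, adjusted p = 0.146). Bop1 passed nowhere: its signal was 9.06 and 9.10 induced, against 8.90 and 8.90 repressed, in dnBrg1. It was 8.77 and 8.85, against 8.48 and 8.81, in dnChd4, and 8.77 and 8.85, against 8.72 and 8.82, in dnSnf2h. The log2 changes of Bop1 were 0.18, 0.16 and 0.04, all above 0 and none past the threshold (adjusted p = 0.336, 0.393 and 0.855).

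Among the other large-subunit factors, Nop2 (a ribosomal RNA cytosine methyltransferase), Nip7, Nop16 and the helicase Ddx18 fell in dnChd4 and dnSnf2h, from -0.36 to -0.70 and from -0.32 to -0.66. The own-chromosome probe set of Ddx18 passed in dnBrg1 (-0.33) and dnChd4 (-0.44) and not in dnSnf2h (-0.18, adjusted p = 0.281). Mrto4, whose yeast relative holds the place of a stalk protein in the precursor, fell in dnChd4 (-0.60, adjusted p = 0.00324). Its signal there was 8.57 and 8.76 induced, against 9.18 and 9.36 repressed. In dnBrg1 it was 8.85 and 8.74, against 8.86 and 9.19 (-0.23), and in dnSnf2h 8.78 and 8.62, against 8.82 and 9.02 (-0.22), both short of the threshold. Noc3l passed in no line (-0.12, -0.34 and -0.34 in dnBrg1, dnChd4 and dnSnf2h).

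Counted over all roles, 9 members fell in all 3 lines: Myc, Rrs1, Nop56, Nop58, Nolc1, Dkc1, Rrp1b, Gnl3 and Ftsj3. Of all genes 611 did so (3.06%). Another 18 fell in dnChd4 and dnSnf2h and did not pass in dnBrg1, 5 fell in exactly 1 line, and Bop1, Rrp12 and Noc3l passed nowhere. The shares of all genes with these other patterns were not counted. The change was below 0 for 32 of 36 members in dnBrg1, 34 in dnChd4 and 34 in dnSnf2h, beside 58.5%, 56.5% and 51.9% of all genes. Induced arrays lay wholly below repressed arrays for 29 members in dnBrg1 (29.9% of all genes), 33 in dnChd4 (32.9%) and 34 in dnSnf2h (24.1%). Leaving out 1 array of the line lowered the members called to 5 or 6 in dnBrg1, against 10 with all its arrays. In dnChd4 the count was 18 without repressed replicate 2 and 18 without induced replicate 1. Fitted on its own 4 arrays, the dnSnf2h line gave 18, and centring each array on its median gave 6 in dnBrg1.

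**Figure D3:**
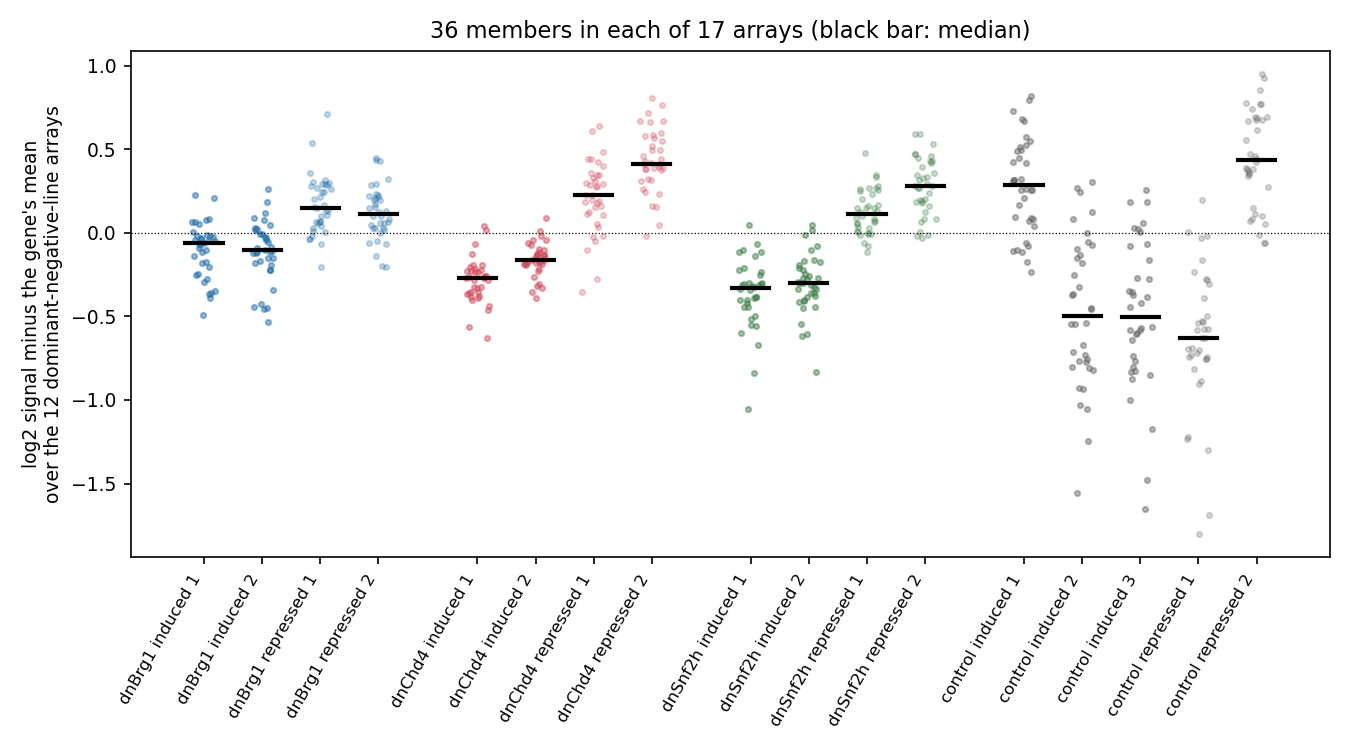
Each point is a measured member on an array, as its log2 signal minus the member's mean over the 12 dominant-negative-line arrays, and the black bar is the median of the 36 members. The induced arrays of the 3 dominant-negative lines have medians from -0.33 to -0.06 and the repressed ones from 0.11 to 0.41, while the control arrays lie at 0.29, -0.50 and -0.50 (induced) and -0.63 and 0.43 (repressed).

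The differences between lines were tested as contrasts of their own. No member passed for dnBrg1 minus dnChd4 (1.27% of all genes did, 0.281% above 0 and 0.993% below), for dnBrg1 minus dnSnf2h (0.632%) or for dnChd4 minus dnSnf2h (0.13%). All 36 members were less negative in dnBrg1 than in dnChd4, with a median difference of 0.30, where 47.1% of all genes had a difference above 0. In dnBrg1 against dnSnf2h 35 of 36 were less negative, with a median of 0.28 and 46.6% of all genes. At an unadjusted p under 0.05 there were 10 such members in each of the 2 contrasts, where 3.45% and 4.85% of all genes were called that way. Both contrasts share the dnBrg1 arrays. For dnChd4 minus dnSnf2h the median was -0.02, with 15 of 36 above 0 and 1 member, Mrto4, at an unadjusted p under 0.05.

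The members with the smallest p in each difference were these. For dnBrg1 minus dnChd4 they were Gnl3, at 0.43 (95% interval 0.12 to 0.73, adjusted p = 0.24), and Heatr1, at 0.51 (0.12 to 0.89, adjusted p = 0.297). Heatr1, a processome scaffold, had signals of 8.88 and 8.78 induced, against 8.996 and 9.05 repressed, in dnBrg1. In dnChd4 they were 8.59 and 8.77 induced, against 9.23 and 9.54 repressed, and in dnSnf2h 8.61 and 8.59, against 9.02 and 9.38, so the induced arrays were the lower ones in each line. For dnBrg1 minus dnSnf2h they were Imp4, at 0.48 (0.18 to 0.77, adjusted p = 0.19), and Myc, at 0.60 (0.20 to 1.00, adjusted p = 0.233). Imp4 was 9.13 and 9.15 induced, against 9.12 and 9.19 repressed, in dnBrg1, and 8.68 and 8.81, against 9.23 and 9.24, in dnSnf2h. In dnChd4 it was 8.87 and 8.92, against 9.10 and 9.33, which left dnBrg1 as the line whose groups overlapped. For dnChd4 minus dnSnf2h they were Mrto4, at -0.39 (-0.77 to -0.01, adjusted p = 0.663), and Ncl, at -0.29 (-0.60 to 0.01, adjusted p = 0.691). These intervals leave room for differences of a size like the changes themselves, so the lines are not shown to act alike.

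**Figure D4:**
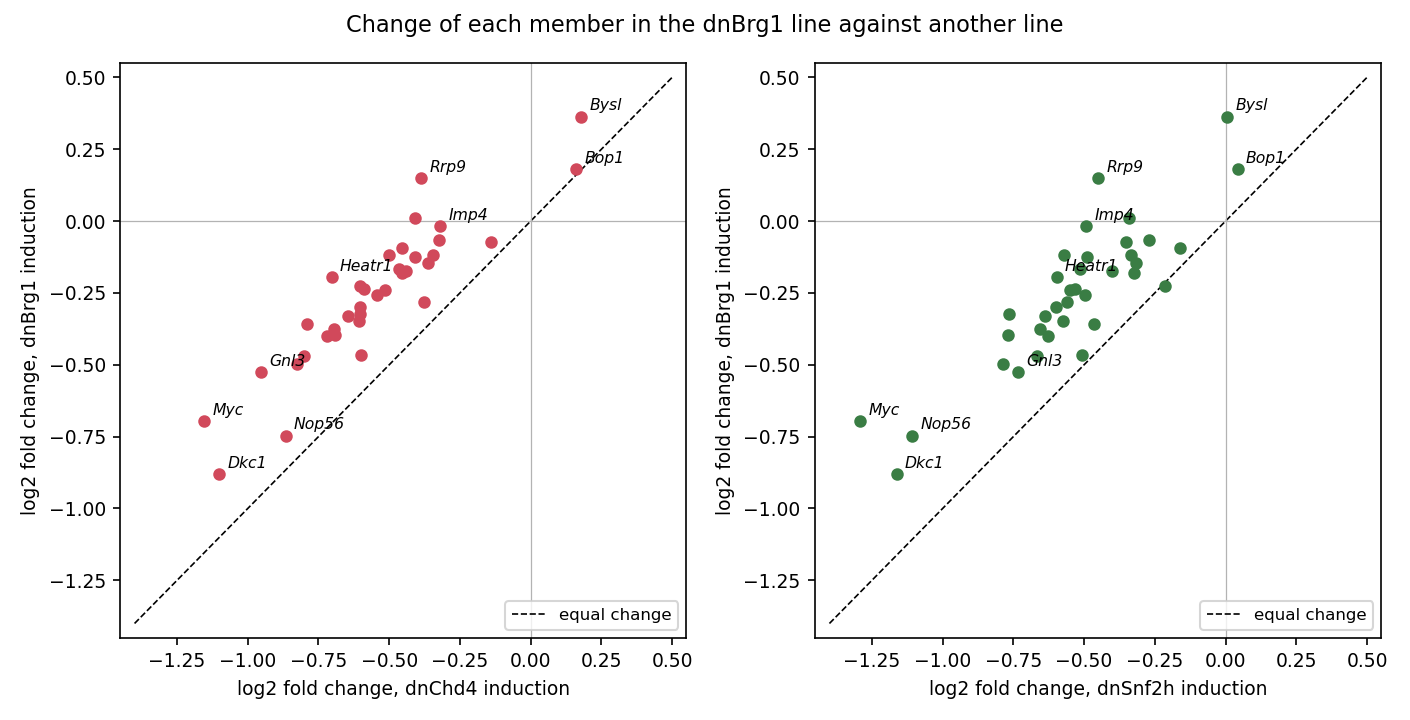
Log2 change of each member in the dnBrg1 line (vertical axis) against that in dnChd4 (left) and dnSnf2h (right), with the dashed line marking equal change. All 36 points lie above the line on the left and 35 on the right, and no single difference passed the adjusted threshold.

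The repressed arrays, which these differences also use, were compared directly. With tetracycline present, 4 members were lower in dnBrg1 than in dnChd4 and none higher, where 14.4% of all genes passed (6.35% lower, 8.07% higher). The 4 were Gnl3, Nip7, Ddx21 and Ftsj3. This count is near the share of all genes that passed, and nothing is read from it. Below 0 lay 32 of 36 members, with a median of -0.17, beside 9520 of 19938 genes. Gnl3 differed by -0.67 (SE 0.101, adjusted p = 0.000364). Nip7, which works late in large-subunit precursor processing, was 7.94 and 7.80 in repressed dnBrg1, against 8.41 and 8.59 in repressed dnChd4 (-0.63, adjusted p = 0.00113). Gnl3, Nip7 and Ddx21 were also lower in repressed dnBrg1 than in repressed dnSnf2h (14.3% of all genes passed, 6.72% lower and 7.61% higher), with Nip7 at 8.24 and 8.37 in repressed dnSnf2h (-0.43, adjusted p = 0.0147) and Gnl3 at -0.39 (adjusted p = 0.0163). Without dnBrg1 repressed replicate 2 the calls numbered 2 against dnChd4 and 0 against dnSnf2h, and without dnSnf2h repressed replicate 2 they also numbered 0 against dnSnf2h. Without dnSnf2h repressed replicate 1 there were 5. The count against dnSnf2h was also near the share of all genes that passed there, and nothing is read from it. With the control arrays in the fit none passed in either comparison.

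Between repressed dnChd4 and repressed dnSnf2h no member passed (0.015% of all genes did), and the median difference was 0.10. The smallest p belonged to Rrs1, at 0.46 (adjusted p = 0.469), and Ncl, at 0.30 (adjusted p = 0.499). Rrs1 was 9.19 and 9.47 in repressed dnChd4, against 9.01 and 8.74 in repressed dnSnf2h, and 8.86 and 9.19 in repressed dnBrg1. On the induced arrays Rrs1 was 8.37 and 8.69 in dnChd4, 8.20 and 8.21 in dnSnf2h and 8.51 and 8.61 in dnBrg1, below every repressed array of the 3 lines.

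The control line was meant to show what drug removal and the transactivator do without a mutant remodeler. As labelled, its induced and repressed arrays gave no call among the members or among all genes (0% in limma, 17 arrays), and no member had an unadjusted p under 0.05, against 845 of all genes. The median member change was -0.11. In 34 of 36 members, all but Bop1 and Bysl, control repressed replicate 2 and control induced replicate 1 were both higher than the other 3 control arrays. Dkc1, for example, was 10.00, 8.40 and 8.16 on the induced control arrays, against 8.10 and 10.19 on the repressed ones. Nop56 was 11.10, 9.82 and 9.76, against 9.29 and 11.26, and Gnl3 9.65, 8.08 and 8.06, against 8.02 and 9.76.

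When control induced replicate 1 and control repressed replicate 1 were left out, 34 members were lower on the induced control arrays, with a median of -0.84, where 26.6% of all genes passed (11.2% lower). Myc then stood at -2.03, Rrs1 at -2.04 and Dkc1 at -1.91. These 2 arrays were picked because of their values, so this is a description of the remaining 3 and supports nothing by itself, and whether labels were exchanged was not tested. The dominant-negative changes minus the control change turned with that choice. With all 17 arrays no member passed (0.0903% of all genes in dnBrg1, 0.0552% higher and 0.0351% lower, 0.0401% in dnChd4, 0.0351% higher, and 0% in dnSnf2h), and the medians were -0.12, -0.42 and -0.40. With the 15 arrays the medians were 0.61, 0.32 and 0.34, and 18, 2 and 3 members were higher (6.95%, 0.818% and 2.08% of all genes passed, and 2.93%, 0.507% and 0.682% were higher). The 3 differences share the control arrays. The effect of a mutant remodeler on these genes and that of the transactivator and drug removal therefore cannot be told apart here.

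Other genes of the programme were listed for comparison, with earlier results known. Of 106 further ribosome assembly factors measured, 47 fell and 3 rose in dnChd4, where 6.82% of all genes fell and 11.2% rose. In dnSnf2h 36 fell and none rose, beside 8.34% of all genes lower and 9.2% higher. In dnBrg1 10 fell and 3 rose, which is near the 14.2% of all genes that passed there (6.22% lower, 8.01% higher), and nothing is read from that count. The medians of these factors were -0.29, -0.25 and -0.09 in dnChd4, dnSnf2h and dnBrg1, closer to 0 than those of the members in the same lines. Mybbp1a, a nucleolar Myb-binding protein, fell by 0.80 in dnChd4 and by 0.95 in dnSnf2h on the log2 scale. Gar1 and Nhp2, partners of Dkc1 in the box H/ACA particle, fell in all 3 lines, Gar1 by 0.36, 0.84 and 0.65 and Nhp2 by 0.54, 0.75 and 0.64 in dnBrg1, dnChd4 and dnSnf2h. Utp14a fell by 0.78 in dnSnf2h, and Ruvbl2, an ATPase of snoRNP assembly, by 0.58 in dnBrg1. Rrp1, Ltv1 and Ddx47 rose in dnBrg1, and Rbm28, Rrp1 and Gnl3l in dnChd4, all by under 0.50.

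Among 13 further RNA polymerase I factors, 3 fell in dnBrg1, 3 in dnChd4 and 4 in dnSnf2h, and none rose. Of all genes, 6.22%, 6.82% and 8.34% fell in the same order of lines, and the list is short. Taf1d, a subunit of the promoter selectivity factor, fell in each line (-0.84, -0.91 and -0.77), and its signal was 10.32 and 10.20 induced, against 11.13 and 11.06 repressed, in dnBrg1. Ubtf, the architectural factor of ribosomal DNA, fell by 0.45, 0.55 and 0.35, and Polr1c, a subunit shared with RNA polymerase III, by 0.54, 0.46 and 0.42 in dnBrg1, dnChd4 and dnSnf2h. Of 18 RNA polymerase III factors, 2 fell in dnBrg1, 2 fell and 1 rose in dnChd4, and 3 fell and 1 rose in dnSnf2h. These counts are near the 14.2%, 18% and 17.5% of all genes that passed in dnBrg1, dnChd4 and dnSnf2h, and are no result about the list. Gtf3a, which starts transcription of the smallest ribosomal RNA, a part of the large subunit, fell in each line (-0.50, -0.64 and -0.70). Polr3e fell in dnBrg1 (-0.41). Gtf3c1 rose in dnChd4 (0.65) and dnSnf2h (0.51).

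Known Myc targets outside the ribosome fell too: 11 of 23 in dnBrg1, 14 in dnChd4 and 17 in dnSnf2h, with medians of -0.31, -0.43 and -0.51 and none risen. Of all genes, 6.22%, 6.82% and 8.34% fell in dnBrg1, dnChd4 and dnSnf2h. Rcc1, the exchange factor of the GTPase Ran, changed by -0.89, -0.95 and -0.90, and Cad, which starts pyrimidine synthesis, by -0.66, -0.76 and -0.92. Srm, the spermidine synthase, changed by -0.87 in dnChd4.

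Genes of the Myc network itself were called in both directions. Of its 16 genes, 2 rose and 3 fell in dnBrg1 (14.2% of all genes passed), 2 rose and 1 fell in dnChd4 (18%), and 3 rose in dnSnf2h (17.5%), and nothing is read from these counts. Mxd4, an antagonist of Myc, rose in all 3 lines, by 0.76 (adjusted p = 0.000227), 1.56 (adjusted p = 3.12e-07) and 0.96 (adjusted p = 2.79e-05) in dnBrg1, dnChd4 and dnSnf2h. Its signal was 8.72 and 8.67 induced, against 7.92 and 7.95 repressed, in dnBrg1. In dnChd4 it was 9.03 and 8.80, against 7.47 and 7.24, and in dnSnf2h 8.55 and 8.53, against 7.57 and 7.60. Mxd4 thus moved opposite to Myc in each of these lines. On the control arrays it was 7.01, 8.67 and 8.56 induced, against 8.61 and 6.71 repressed, high on the same 3 arrays on which the members were low.

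Mlx, a partner of Mxd proteins, rose in each line too (0.49, 0.39 and 0.30). Mxd1, another antagonist, rose in dnSnf2h (0.74, adjusted p = 0.000377) and did not pass in dnBrg1 (0.10) or dnChd4 (0.32, adjusted p = 0.0684). Mnt fell in dnBrg1 (-0.33, adjusted p = 0.0313), where Mxd3 (-0.65) and the Myc ubiquitin ligase subunit Skp2 (-0.47) fell as well, and Skp2 also fell in dnChd4 (-0.38). Max, the shared partner, did not pass in any line (0.05, 0.27 and 0.17), nor did Mxi1 (-0.25, -0.05 and -0.21).

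Proliferation genes moved with the members: 10 of 13 fell in dnBrg1, where 6.22% of all genes fell. In dnChd4 and in dnSnf2h 13 of 13 fell, beside 6.82% and 8.34% of all genes. The medians were -0.59, -0.75 and -0.79 in dnBrg1, dnChd4 and dnSnf2h. Top2a changed by -0.91 and Ccna2 by -0.85 in dnBrg1, Mcm5 by -0.77 and Mcm4 by -0.82 in dnChd4, and Mcm5 by -0.87 and Mcm7 by -0.90 in dnSnf2h. Their part in the members' result was not tested. In bulk RNA, fewer cycling cells and less RNA per cell cannot be told apart, and values scaled within an array do not show a change of total RNA per cell.

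Markers of other cell types moved less uniformly. The mean level of the 4 basal markers was 5.51 to 5.64 in induced dnBrg1, against 6.05 to 6.08 repressed, but 6.56 to 6.74 in induced dnChd4, against 6.28 to 6.31 repressed. In dnSnf2h it was 6.47 to 6.67 induced, against 6.28 to 6.34 repressed. The 5 fibroblast markers averaged 7.45 to 7.49 in induced dnBrg1, against 7.96 to 8.04 repressed, 8.11 to 8.27 against 8.01 to 8.21 in dnChd4, and 7.69 to 8.004 against 8.13 to 8.15 in dnSnf2h. The defining macrophage genes Ptprc, Adgre1 and Csf1r and the adipocyte genes Adipoq and Fabp4 were dim on average. The other markers of these lists, Cd68 (mean 6.01) and Plin1 (mean 6.08), were not dim. Cd68 changed by -0.48 in dnBrg1 and by 1.03 in dnChd4, both past the threshold. The basal mean was thus lower on the induced dnBrg1 arrays and higher on the induced dnChd4 and dnSnf2h arrays. The defining basal keratin Krt14 nevertheless fell in all 3 lines (-1.29, -1.15 and -1.29), Acta2 rose in dnChd4 (2.56) and dnSnf2h (2.32), and the part of cell state in the members' result was not tested.

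**Figure D5:**
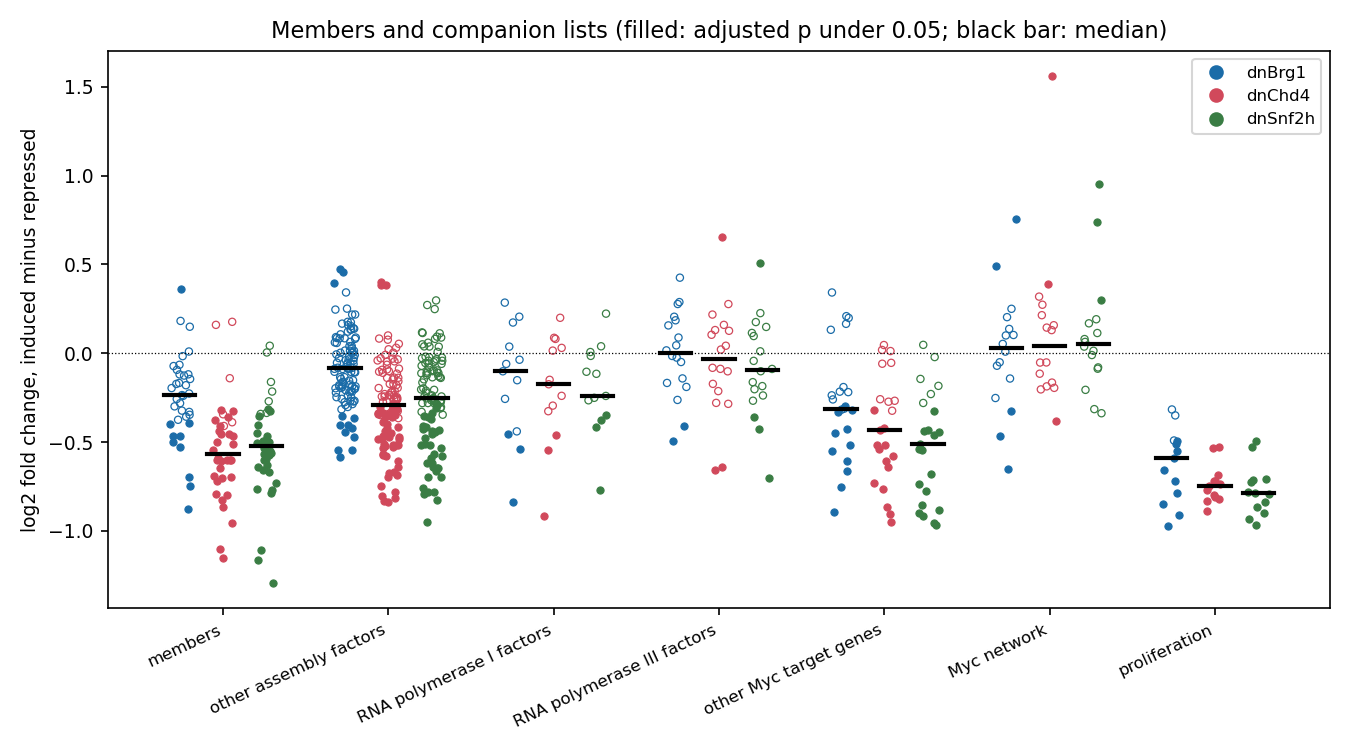
Log2 change, induced minus repressed, of every measured gene of the members and of the 6 comparison lists in dnBrg1, dnChd4 and dnSnf2h. Filled points passed the adjusted threshold of 0.05 and black bars are medians, which are below 0 for the members, the assembly factors, the Myc targets and the proliferation genes and near 0 for the Myc network.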

How the data were processed

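Total RNA of 17 samples was hybridised to the Affymetrix Mouse Gene 1.0 ST array. The deposited table held log2 values, 1 per probe set and array (35557 probe sets, 2.02 to 14.86, array medians 5.48 to 5.63), made with Affymetrix Expression Console per the submitters' processing notes. How probes were summarized and normalized is not given in the sources used here. The values were used without further scaling. Probe sets with 1 symbol in the platform annotation (21789) were kept, those with several (1621) or none (12147) were not, and the probe set with the highest mean stood for a gene.

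Group means were fitted in limma 3.58.1 (R 4.3.3) with moderated tests and Benjamini-Hochberg adjustment over 19938 genes at 0.05, on the 12 arrays of the dominant-negative lines, or on 17 for contrasts with the control line. Groups came from the sample titles. The code was tested on simulated data. Array number limits the precision, and no read depth exists.

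Among the members, Myc, the 3 lowest and 2 highest fold changes of each induction and the 2 smallest p of each other comparison were given by array. Nip7 was given on repressed arrays only. From the comparison lists the 2 smallest p of each induction were named, together with Max, Mxd1, Mxd4, Mxi1 and Mnt. These were given as changes, with array values for Mxd4 and, in dnBrg1, for Taf1d. Further genes were named after their values were seen. The members, lists and main array choice were set with earlier results of these data known. Promoter sequences were RefSeq's (GRCm38.p6). Alternatives were the array set, normalization, filter, probe-set choice, replicate block and each array left out, and own-chromosome probe sets were added after the values were seen.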

Additional observations from a re-analysis of the deposited data

Results flagged for a closer look

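In the comparison lists, 2 genes changed differently between lines by a test of the difference itself. Of all genes, 1.27% passed for dnBrg1 minus dnChd4 and 0.632% for dnBrg1 minus dnSnf2h, and nothing is read from the count. Cell type markers and remodeler genes are not part of these lists. Of those, Acta2 (-3.05), Cd68 (-1.51) and Chd4 (-2.04) passed for dnBrg1 minus dnChd4. Acta2 (-2.82) also passed for dnBrg1 minus dnSnf2h, and Chd4 (1.86) for dnChd4 minus dnSnf2h. Mxd4, an antagonist of Myc, rose less in dnBrg1 (0.76) than in dnChd4 (1.56), a difference of -0.80 on the log2 scale (SE 0.148, adjusted p = 0.0127, limma, 12 arrays). The repressed arrays differed as well, with 7.92 and 7.95 in dnBrg1 and 7.47 and 7.24 in dnChd4. Ccnd2, a cyclin and Myc target that was named after its values were seen, differed by 0.78 between dnBrg1 and dnSnf2h (SE 0.156, adjusted p = 0.0353). Its signal was 9.96 and 9.88 induced, against 9.68 and 9.48 repressed, in dnBrg1, and 8.88 and 8.95, against 9.23 and 9.48, in dnSnf2h. The change in dnBrg1 was 0.34 (adjusted p = 0.0521) and that in dnSnf2h -0.44 (adjusted p = 0.0114).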

How the results depend on the processing

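The calls rest most on which arrays share the estimate of spread. With all 17 arrays the members called were 0 in the dnBrg1, dnChd4 and dnSnf2h inductions and 0 in repressed dnBrg1 minus dnChd4 and minus dnSnf2h. Without control induced replicate 1 and control repressed replicate 1 the control induction gave 34 and a median of -0.84, and the differences of dnBrg1, dnChd4 and dnSnf2h from control gave 18, 2 and 3 calls and medians of 0.61, 0.32 and 0.34. The cause was not tested. With the replicate number as a block 16 members were called in dnBrg1. Deviations of same-numbered arrays correlated at 0.016 in dnBrg1, 0.135 in dnChd4 and 0.313 in dnSnf2h, and at -0.743, in opposite directions, in control. Not every correlation was over 0.1 and no label ties a number to a shared culture or day, so the numbers were not taken to pair the arrays. Centring arrays on their medians gave 6 calls and a median of -0.17 in dnBrg1, and the dnSnf2h arrays alone gave 18, with fewer samples. Leaving out 1 array gave 5 to 6 calls in dnBrg1, 18 to 30 in dnChd4, 20 to 29 in dnSnf2h, 0 to 1 for dnBrg1 minus dnChd4, and 2 to 6 and 0 to 5 for repressed dnBrg1 minus dnChd4 and minus dnSnf2h. Medians then ran from 0.20 to 0.40 for dnBrg1 minus dnChd4, 0.19 to 0.38 for dnBrg1 minus dnSnf2h, -0.11 to 0.12 for dnChd4 minus dnSnf2h, -0.12 to 0.045 for repressed dnBrg1 minus dnSnf2h, -0.61 to 0.39 for control, and -0.59 to 0.40, -0.91 to 0.13 and -0.87 to 0.11 for dnBrg1, dnChd4 and dnSnf2h minus control. With 1 array left out, Bop1 in dnChd4 ran from -0.0063 (without repressed replicate 1) to 0.33. In dnSnf2h, Bop1 ran from -0.0069 to 0.092 and Bysl from -0.032 to 0.040, both lowest without repressed replicate 1. Myc in control, at -0.28 with every array, ran from -1.33 to 0.78 and was above 0 without repressed replicate 2 (0.78), induced replicate 2 (0.048) or induced replicate 3 (0.096). The sign also turned for Bysl in dnSnf2h after quantile normalization (-0.0098) and for Myc in control with the block (0.096). No other direction turned among the named members. Medians of all genes stayed between -0.0455 and 0.0497 under every setting other than leaving out 1 array, where they were not computed.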
